A study of Homo sapiens with 6 samples.

Results

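The genes described here are the mitochondrial carriers of the SLC25 family and the genes of the mitochondrial protein import machinery named TIMM and TOMM, in HepG2 cells with raised PBLD. Members were chosen by gene symbol alone (SLC25A, TIMM or TOMM followed by a number and, for the import genes, an optional letter), which picked 98 of 47323 array probes. These probes stand for 69 of 20046 measured genes, namely 45 SLC25 carriers with 66 probes and 24 import genes (10 TOMM and 14 TIMM) with 32 probes. HepG2 is a hepatoma cell line that keeps many functions of hepatocytes. The study set 3 samples labelled control beside 3 labelled PBLD overexpressed, all of HepG2 and each on its own Illumina bead array. How PBLD was raised, whether the controls carried an empty vector, whether a line is a clone, and the time of harvest are not given in the sources used here.

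Most mitochondrial proteins are made in the cytosol and carried in after synthesis. The TOM complex forms the gate in the outer membrane, from which TIM23 takes proteins with a cleavable leader into the matrix, small TIM chaperones escort hydrophobic proteins through the space between the membranes, and TIM22 inserts the carriers into the inner membrane. Most SLC25 carriers are themselves clients of TIM22. These carriers exchange ADP, ATP, phosphate, organic acids, amino acids, cofactors and metal ions across the inner membrane. In liver this exchange feeds the urea cycle, fatty acid oxidation and glucose production.

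Levels are the deposited values, read as log2 intensity from their range since no source used here states the log base, with every array at a median of 8, and changes are PBLD minus control on the same scale. Where several probes measure a gene, the one brightest on average was used, and a probe's level says nothing of how abundant one transcript is beside another. A probe counts as above background on an array where it exceeds the 95th percentile of 590 probes for smell, taste and hair genes that are silent in liver cells, a limit of 8.06 to 8.09. Changes were tested in limma over all probes with Benjamini-Hochberg adjustment, and "rose", "fell" and "called" mean an adjusted p under 0.05. Nothing says that samples of a group came from separate cultures, so the spread behind each p-value may be only technical. With 3 arrays a group, their number limits the precision.

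PBLD rose from 8.09 ± 0.09 to 12.73 ± 0.11 (SD, n = 3 each) on probe ILMN_1789653, with 1 of 3 control arrays above background, which fits the group labels. Probe ILMN_2304404 rose too, by 4.40. The remaining PBLD probes, ILMN_1760748 and ILMN_1699684, were above background on 0 arrays and changed by 0.05 and -0.05. Arrays correlated at a Pearson's r of 0.995 to 0.996 within groups and 0.990 to 0.992 between them, across probes. All 8 measured hepatocyte markers, ALB and AFP among them, were above background on 6 arrays, whereas the leukocyte markers PTPRC and CD3E and the endothelial markers PECAM1 and CDH5 were above it on 0. LYZ, also listed as a leukocyte marker, was above background on all 6 arrays and fell by 0.31, and the endothelial VWF was above it on 4. In total RNA of a culture, fewer cells of one kind and less RNA per cell cannot be told apart.

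The import machinery held most of the changes. Of 24 import genes, 9 rose, 1 fell and 14 did not pass, while of 45 carriers 1 rose, 1 fell and 43 did not pass. The changes were small, from 1.17-fold to 1.41-fold. The risers were TOMM40, TOMM22, TOMM5, TOMM34, TIMM10, TIMM21, TIMM44, TIMM22 and TIMM29, and TOMM20 was the import gene that fell. Among the carriers SLC25A39 rose and SLC25A47 fell.

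Across all 20046 genes 5.81% rose and 4.20% fell, 10.0% in either direction, beside 37.5% and 4.17% of the import genes and 2.22% of the carriers in each direction. Many genes on the array have no measurable transcript, and among the 10880 genes above background on at least 3 arrays 10.6% rose and 7.72% fell, 18.4% in all. Of the members, 21 of 24 import genes and 34 of 45 carriers were above background on at least 3 arrays. The median change was 0.16 over the import genes, 0.00 over the carriers and 0.01 over all genes. The 3 PBLD arrays lay above all 3 control arrays in 10 import genes and 7 carriers, against 13.6% of all genes, and below them in 1 import gene and 2 carriers, against 9.82% (23.4% of all genes in either direction). Among the 10880 genes above background on at least 3 arrays, they lay above in 2211 and below in 1479. No test of the difference between the import and carrier lists was made.

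The count of 9 fell to 5 without control replicate 3, without PBLD replicate 1 or without PBLD replicate 2, where the share of all genes called higher was 3.70%, 4.05% and 3.87%. After normexp background correction and quantile normalization limma called 0 of 24 import genes higher and 0 lower (10 higher and 1 lower at an unadjusted p under 0.05, among them all 9 risers). The 9 were picked for a small p on these same arrays, so passing the looser limit is no separate support for them. In that fit 1.22% of all genes were called higher and 2.03% lower, and 9.11% were higher and 9.18% lower at an unadjusted p under 0.05. In the fit as reported those unadjusted shares were 12.6% and 9.09%.

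**Figure D1:**
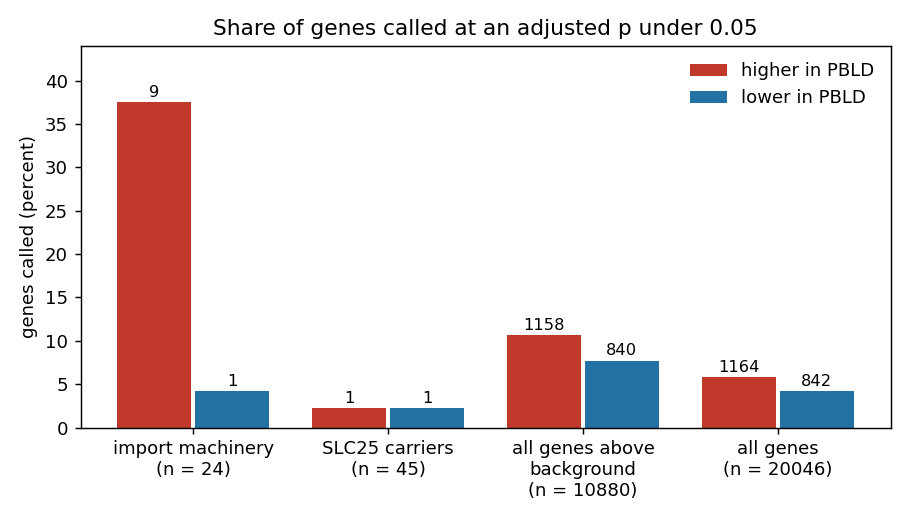
Percent of genes called higher (red) or lower (blue) in PBLD cells in limma at an adjusted p under 0.05, for 24 import genes, 45 SLC25 carriers, the 10880 genes above background on at least 3 arrays and all 20046 genes, with the number of genes above each bar. The import bar for higher genes stands at 37.5%, against 5.81% for all genes.

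In the outer membrane the TOM genes did not move together. TOMM40, which forms the protein-conducting channel, read 12.25, 12.18 and 12.13 on the control arrays and 12.68, 12.71 and 12.65 on the PBLD arrays. Its groups lay far apart beside the spread within each, and it rose by 0.49 (SE 0.06, 1.41-fold, limma adjusted p = 0.000107). TOMM22, the receptor that also organises the complex, read 11.57, 11.59 and 11.45 in control and 11.77, 11.89 and 11.91 in PBLD cells. Every PBLD array was above every control array, and TOMM22 rose by 0.32 (SE 0.07, 1.25-fold, adjusted p = 0.00686).

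TOMM5, a small subunit, read 11.66, 12.12 and 11.88 in control and 12.18, 12.31 and 12.24 in PBLD cells. The control arrays spread widely (SD 0.23) and control replicate 2 came close to the PBLD arrays, and TOMM5 rose by 0.35 (SE 0.09, 1.28-fold, adjusted p = 0.0279). Its call ended without control replicate 1 (adjusted p = 0.156), control replicate 3 (0.0666), PBLD replicate 1 (0.0630), PBLD replicate 2 (0.0857) or PBLD replicate 3 (0.0558), within a range of 0.000754 to 0.353 over all alternatives. TOMM34, a cytosolic co-chaperone that binds HSP70 and HSP90 and is not part of the gate, read 11.99, 11.99 and 11.77 in control and 12.36, 12.49 and 12.34 in PBLD cells. Its groups did not overlap, and it rose by 0.48 (SE 0.07, 1.39-fold, adjusted p = 0.000585).

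TOMM20, the receptor that recognises cleavable leaders, went the other way. It read 13.43, 13.32 and 13.17 in control cells and 12.92, 12.92 and 12.93 in PBLD cells. The PBLD arrays agreed closely while the control arrays were scattered above them, and TOMM20 fell by 0.39 on the log2 scale (SE 0.07, 1.31-fold lower, adjusted p = 0.00250). A second probe, ILMN_1679796, also fell, from 12.55 ± 0.04 to 12.23 ± 0.08 (SD, n = 3 each), with an adjusted p of 0.00610. Transcripts of the channel TOMM40 and the receptor TOMM20 thus changed in opposite directions, while that of the receptor TOMM22 rose.

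The other TOM genes did not pass. TOMM6, a small subunit, read 13.10, 13.13 and 12.76 in control and 13.30, 13.39 and 13.15 in PBLD cells, a change of 0.28 with a 95% interval of 0.09 to 0.48 (adjusted p = 0.0863). Its groups did not overlap, but control replicate 3 lay well below the other control arrays. TOMM70, the receptor for carrier proteins, changed by 0.13 (interval -0.03 to 0.30) and TOMM7, another small subunit, by 0.03 (-0.13 to 0.18). TOMM7 read 13.40, 13.41 and 13.27 in control and 13.32, 13.54 and 13.31 in PBLD cells, so its groups overlapped, and its second probe gave 0.03 as well. TOMM40L, a relative of TOMM40, and TOMM20L, a relative of TOMM20 above background on 1 array, did not pass either.

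**Figure D2:**
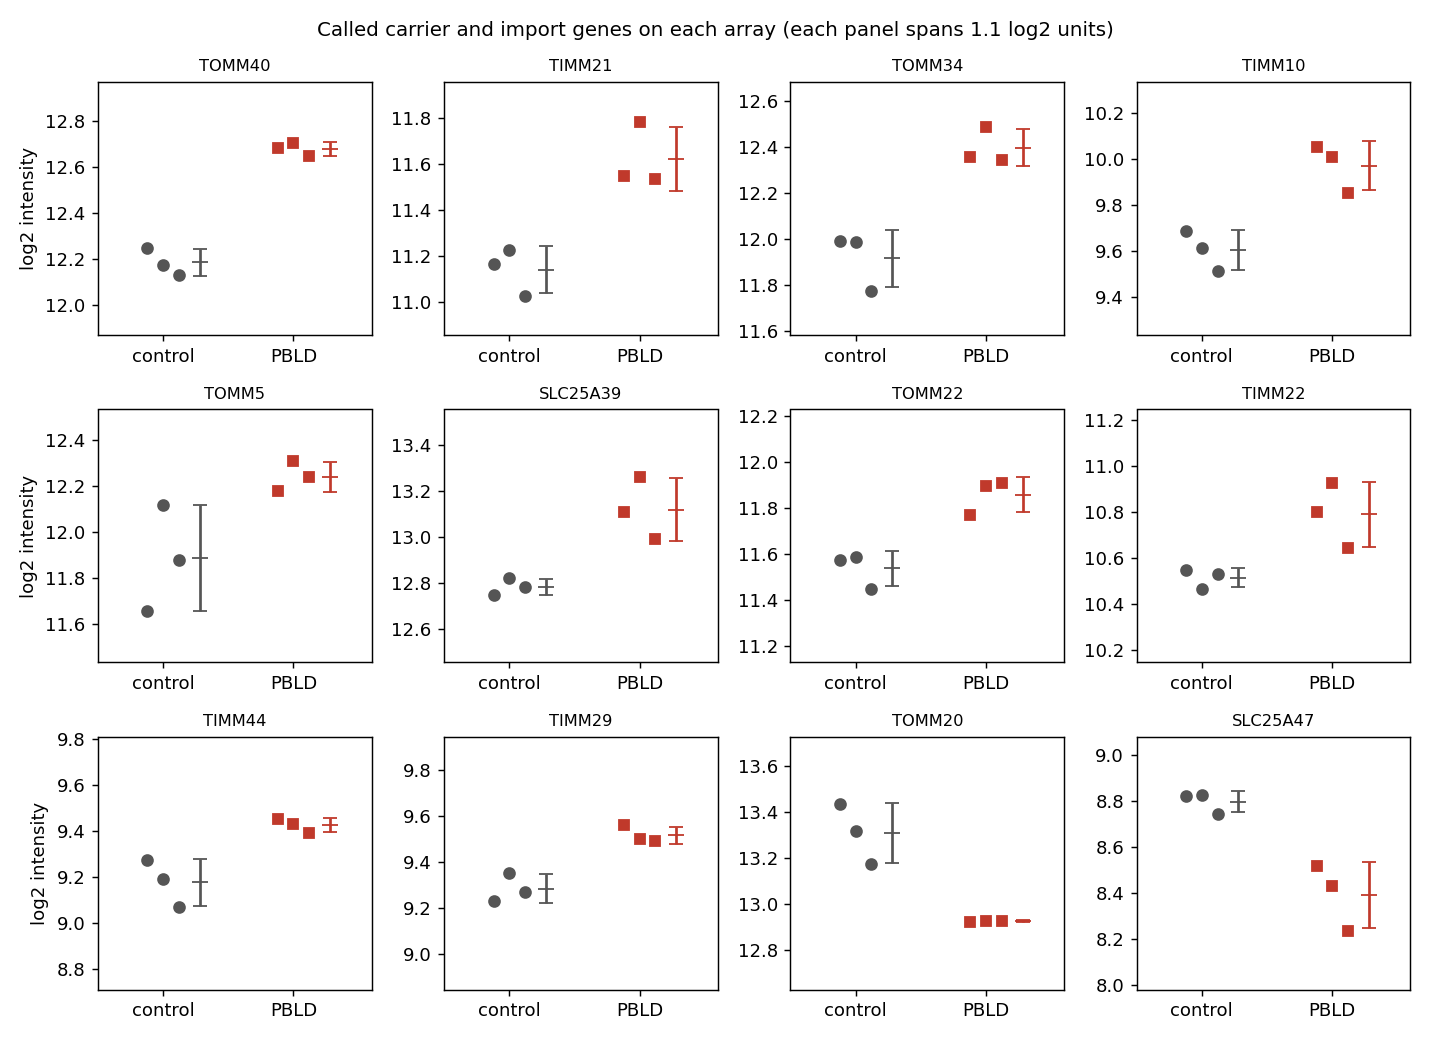
Log2 intensity of the 12 called genes on each array, with control arrays as grey circles and PBLD arrays as red squares, in replicate order from left to right, and the mean with SD (n = 3) beside them. PBLD and control arrays do not overlap in any panel, with PBLD above in 10 genes and below in TOMM20 and SLC25A47, and TOMM5 has the widest control spread of the 12 (SD 0.23).

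Between the membranes 1 of the 6 small TIM chaperones rose. TIMM10 read 9.69, 9.61 and 9.52 in control and 10.05, 10.01 and 9.85 in PBLD cells. Its groups were clearly apart, and it rose by 0.37 (SE 0.07, 1.29-fold, adjusted p = 0.00391). TIMM9, which assembles with TIMM10 into one ring-shaped chaperone, read 10.76, 10.59 and 10.54 in control and 10.49, 10.57 and 10.52 in PBLD cells. Its groups overlapped and its change of -0.11 (95% interval -0.25 to 0.04) did not pass. TIMM8A, TIMM8B, TIMM10B and TIMM13 lay between -0.01 and 0.18 and did not pass, and TIMM13 was above background on 0 arrays.

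At the inner membrane TIMM22 and TIMM29 of the TIM22 complex rose, while AGK, a lipid kinase that is also a subunit of the human complex, did not pass (0.12, adjusted p = 0.517). TIMM22, its pore, read 10.55, 10.47 and 10.53 in control and 10.80, 10.93 and 10.65 in PBLD cells, a rise of 0.27 (SE 0.07, 1.21-fold, adjusted p = 0.0333). TIMM29, a subunit of the human complex, read 9.23, 9.35 and 9.27 in control and 9.56, 9.50 and 9.49 in PBLD cells, a rise of 0.23 (SE 0.06, 1.17-fold, adjusted p = 0.0361). In both genes the groups did not overlap, but the calls were near the threshold.

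The TIMM22 call ended without control replicate 1 (adjusted p = 0.0756), control replicate 2 (0.146), control replicate 3 (0.0650), PBLD replicate 1 (0.119) or PBLD replicate 2 (0.151), within 0.00737 to 0.324 over all alternatives. That of TIMM29 ended without control replicate 1 (0.160), control replicate 3 (0.0939), PBLD replicate 1 (0.150), PBLD replicate 2 (0.0663) or PBLD replicate 3 (0.0572), within 0.0218 to 0.345.

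Of the 6 genes of TIM23 and its motor, 2 rose and all 6 had changes above 0, as did 10761 of all 20046 genes. Among the 6, TIMM50 was above background on 0 arrays and TIMM17A on 4, so their signs carry little weight. TIMM21, which links TIM23 to the TOM complex and to assembling respiratory chain subunits, read 11.17, 11.23 and 11.03 in control and 11.55, 11.78 and 11.54 in PBLD cells. The groups were widely apart, and TIMM21 rose by 0.48 (SE 0.08, 1.40-fold, adjusted p = 0.000906). Its second probe, ILMN_1748916, rose by 0.53 (SE 0.07, adjusted p = 0.000262).

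TIMM44, which tethers the mitochondrial HSP70 motor to the channel, read 9.27, 9.19 and 9.07 in control and 9.45, 9.43 and 9.39 in PBLD cells. The PBLD arrays agreed closely above the control arrays, and TIMM44 rose by 0.25 (SE 0.07, 1.19-fold, adjusted p = 0.0355). Its call ended without control replicate 2 (adjusted p = 0.0954), control replicate 3 (0.157), PBLD replicate 1 (0.135), PBLD replicate 2 (0.0828) or PBLD replicate 3 (0.0511), within 0.0152 to 0.247 over all alternatives.

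TIMM23, the channel subunit, was measured by 4 probes that did not give one answer. Its chosen probe read 13.18, 13.35 and 13.15 in control and 13.39, 13.52 and 13.29 in PBLD cells, a change of 0.18 (95% interval 0.02 to 0.34, adjusted p = 0.250). On that probe the groups overlapped. Probe ILMN_1664231 read 11.19, 11.22 and 11.18 in control and 11.50, 11.53 and 11.50 in PBLD cells and rose by 0.31 (SE 0.06, adjusted p = 0.00356). The other two probes gave 0.24 (adjusted p = 0.0814) and 0.18 (adjusted p = 0.383), so all 4 pointed upwards and 1 passed. TIMM23 has a near-identical copy, TIMM23B, and which of them a probe measures is uncertain. TIMM17A, TIMM17B and TIMM50, further channel and receptor subunits, changed by 0.08 to 0.10 and did not pass, TIMM50 being above background on 0 arrays.

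**Figure D3:**
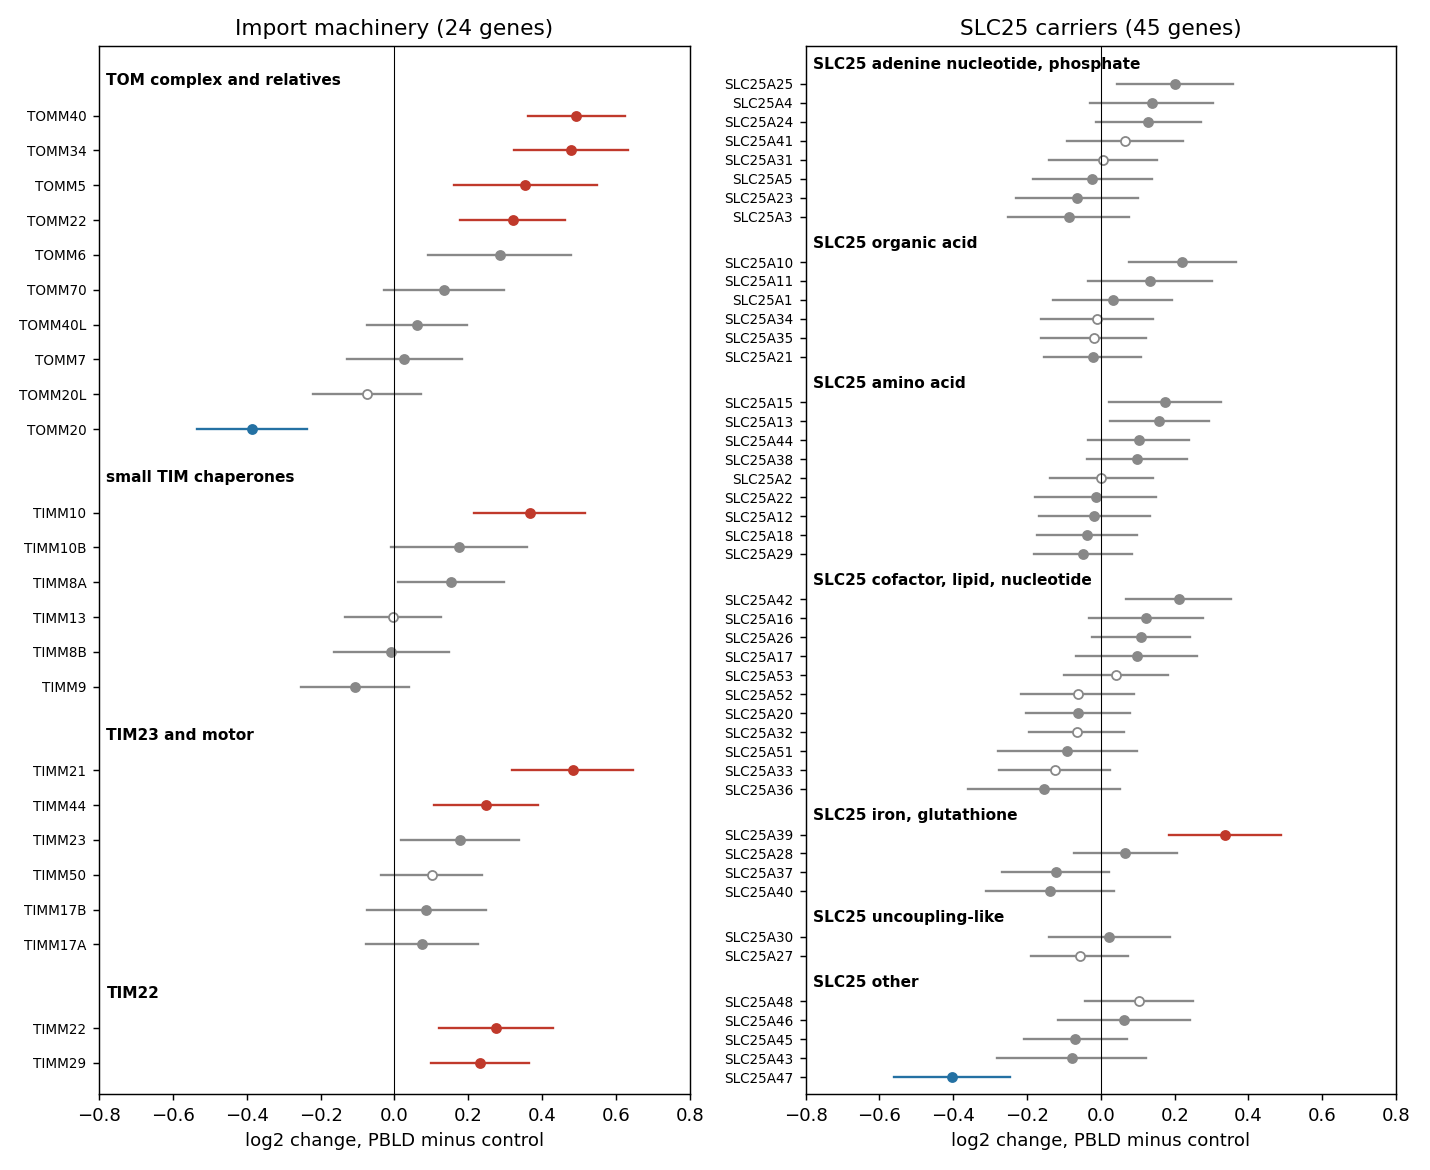
Log2 change (PBLD minus control) with its 95% interval for the 24 import genes on the left and the 45 SLC25 carriers on the right, grouped by role, with red for called higher, blue for called lower, grey for not called and open circles for genes above background on fewer than 3 arrays. The 9 red import genes lie between 0.23 and 0.49, and the called carriers are SLC25A39 at 0.34 and SLC25A47 at -0.40, among carriers with a median of 0.00.

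The promoters of import genes were read beside these changes because many genes of mitochondrial proteins are known to be controlled by the factor NRF1 and by factors of the ETS family. Both motifs were searched on both strands in the 250 bases before the gene's start, in RefSeq promoters of build GRCh38.p14, which hold 22 of the 24 import genes and 38 of the 45 carriers. The NRF1 motif, a GC-rich run with one free base whose letters are the longer capital runs in the sequences shown, was present in 3 of 8 import genes that rose and have a promoter in the table, TOMM40, TOMM34 and TIMM29. It was also present in TOMM20, which fell, and in 1 of 13 that did not pass, TOMM7. Of all 35116 promoters 5.07% hold it, as do 4 of 48 carrier promoters. The ETS motif, CCGGAAG or its reverse CTTCCGG, was present in 8 of 22 import genes, 2 of 8 risers and 5 of 13 that did not pass, and in 10 of 48 carrier promoters, against 8.52% of all promoters. The NRF1 and ETS motifs do not overlap each other in the sequences shown. A match is a string of letters and not a shown binding site, and no test was made of it.

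Shown here are the 250 bases before the start of 2 risers with the NRF1 motif and of both genes that fell, so that the letters shared by genes going opposite ways can be seen. Sequences run 5′ to 3′ on the gene's strand, and capitals mark every match to either motif. TOMM34 lies at chr20:44960398-44960647 on the minus strand with an NRF1 motif whose first base is at -14 from the start. TIMM29 lies at chr19:10928561-10928810 on the plus strand with NRF1 motifs at -190 and -74 and an ETS motif at -89. TOMM20 lies at chr1:235128838-235129087 on the minus strand with an NRF1 motif at -101 and an ETS motif at -22. SLC25A47 lies at chr14:100323089-100323338 on the plus strand with an ETS motif at -56 and no NRF1 match.
TOMM34: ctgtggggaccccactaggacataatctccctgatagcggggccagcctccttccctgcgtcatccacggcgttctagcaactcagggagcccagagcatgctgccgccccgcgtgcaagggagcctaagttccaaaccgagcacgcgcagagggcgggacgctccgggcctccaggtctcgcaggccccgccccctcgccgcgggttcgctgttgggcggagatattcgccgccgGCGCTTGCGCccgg
TIMM29: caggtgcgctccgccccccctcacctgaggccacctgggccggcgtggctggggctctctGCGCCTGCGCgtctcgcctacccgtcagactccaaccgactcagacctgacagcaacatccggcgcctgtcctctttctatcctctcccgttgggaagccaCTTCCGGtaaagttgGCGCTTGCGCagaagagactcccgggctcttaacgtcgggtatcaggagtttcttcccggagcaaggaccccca
TOMM20: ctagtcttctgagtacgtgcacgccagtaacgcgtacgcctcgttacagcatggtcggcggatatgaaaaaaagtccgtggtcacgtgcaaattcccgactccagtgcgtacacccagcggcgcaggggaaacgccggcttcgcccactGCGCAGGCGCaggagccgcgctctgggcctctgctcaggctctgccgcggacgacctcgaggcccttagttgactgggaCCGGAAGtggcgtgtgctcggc
SLC25A47: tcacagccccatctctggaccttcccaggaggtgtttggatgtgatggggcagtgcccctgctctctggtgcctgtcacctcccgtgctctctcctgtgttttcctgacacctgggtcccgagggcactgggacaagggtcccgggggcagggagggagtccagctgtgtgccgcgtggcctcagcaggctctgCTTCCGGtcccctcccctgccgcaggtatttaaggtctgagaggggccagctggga

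Among the carriers the called changes were SLC25A39 and SLC25A47. SLC25A39, which brings glutathione into mitochondria, read 12.75, 12.82 and 12.78 in control and 13.11, 13.26 and 12.99 in PBLD cells. The control arrays agreed closely below the PBLD arrays, and SLC25A39 rose by 0.34 (SE 0.07, 1.26-fold, adjusted p = 0.00819). SLC25A40, its closest relative in the family, read 8.96, 9.07 and 8.74 against 8.84, 8.85 and 8.68, with overlapping groups and a change of -0.14 (95% interval -0.31 to 0.04). The mitoferrins SLC25A28 and SLC25A37, which import iron, changed by 0.07 and -0.12 and did not pass.

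SLC25A47, a carrier known for its restriction to liver, read 8.82, 8.83 and 8.75 in control and 8.52, 8.43 and 8.24 in PBLD cells. All 6 arrays were above background and the groups did not overlap, and SLC25A47 fell by 0.40 on the log2 scale (SE 0.07, 1.32-fold lower, adjusted p = 0.00251). Its call remained after normexp and quantile normalization, at -0.67 (adjusted p = 0.0340, range over all alternatives 5.59e-05 to 0.0340). Of the 8 hepatocyte markers, 4 fell too, TTR by 0.59, SERPINA1 and APOB by 0.31 each and APOA1 by 0.30, and 4 did not pass. Of all genes 4.20% fell, and of those above background on at least 3 arrays 7.72%. In log2 units the 8 markers summed to 119.2 to 120.6 on the control arrays and 117.7 to 118.7 on the PBLD arrays. These sums did not overlap between the groups, but they include the 4 markers that fell and are no separate evidence. The part of the markers in the result was not tested.

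The carriers of adenine nucleotides and phosphate had 0 of 8 genes called in limma (1 at an unadjusted p under 0.05), with changes from -0.09 to 0.20. SLC25A5, an ADP/ATP exchanger, read 14.79, 14.95 and 14.72 in control and 14.82, 14.90 and 14.68 in PBLD cells. The groups overlapped, and the 95% interval of its change ran from -0.18 to 0.14. SLC25A4, another ADP/ATP exchanger, changed by 0.14 (interval -0.03 to 0.30), and the phosphate carrier SLC25A3 by -0.09 (-0.25 to 0.08). SLC25A25, a calcium-regulated carrier of ATP and phosphate, had the smallest p of this set, at 0.20 (0.04 to 0.36, adjusted p = 0.159). Over the 8 genes no 95% interval reached beyond -0.25 or 0.36.

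The carriers of organic acids had 0 of 6 genes called (1 at an unadjusted p under 0.05). SLC25A1, the citrate carrier that feeds fat synthesis, read 11.41, 11.52 and 11.25 in control and 11.46, 11.50 and 11.32 in PBLD cells, with overlapping groups. SLC25A10, which exchanges dicarboxylates for phosphate, read 10.52, 10.66 and 10.45 in control and 10.76, 10.71 and 10.82 in PBLD cells. Its groups did not overlap, and its change of 0.22 (95% interval 0.08 to 0.37) just missed the threshold at an adjusted p of 0.0760. SLC25A11, the oxoglutarate carrier of the malate-aspartate shuttle, changed by 0.13 and did not pass.

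The amino acid carriers had 0 of 9 called (2 higher at an unadjusted p under 0.05). SLC25A13, the aspartate-glutamate carrier of liver known as citrin, read 11.01, 11.05 and 11.02 in control and 11.16, 11.12 and 11.27 in PBLD cells. The groups did not overlap, and the change was 0.16 (interval 0.02 to 0.29, adjusted p = 0.216). SLC25A15, the ornithine carrier of the urea cycle, changed by 0.17 (0.02 to 0.32, adjusted p = 0.237) on one probe and by 0.02 on another that was also above background on all arrays.

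The carriers of cofactors, lipids and nucleotides had 0 of 11 called (1 at an unadjusted p under 0.05). SLC25A42, which imports coenzyme A, read 10.90, 10.91 and 10.87 in control and 11.10, 11.21 and 10.99 in PBLD cells. The groups were apart, and the change of 0.21 (interval 0.07 to 0.35) had an adjusted p of 0.0857, while its second probe gave 0.05. SLC25A51, the NAD carrier, read 13.22, 13.19 and 13.37 in control and 13.18, 13.37 and 12.96 in PBLD cells, with overlapping groups and a change of -0.09. It has a close copy, SLC25A52, so its probe's target is uncertain. SLC25A20, which carries acylcarnitines for fatty acid oxidation, changed by -0.06 (interval -0.20 to 0.08), and its second probe by -0.12.

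The uncoupling-like carriers SLC25A27 and SLC25A30 lay at or near background, with SLC25A27 above it on 0 arrays and SLC25A30 on 3. SLC25A27 read 8.01, 7.93 and 7.94 in control and 7.90, 7.94 and 7.87 in PBLD cells, and SLC25A30 read 8.17, 8.10 and 8.05 against 8.04, 8.03 and 8.31. Neither separated the groups. Of the 4 remaining carriers besides SLC25A47, SLC25A43 read 10.23, 10.15 and 9.80 in control and 9.96, 10.10 and 9.89 in PBLD cells, with overlapping groups, and 0 of the 4 passed.

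Over the 43 carriers that did not pass, changes lay between -0.15 and 0.22, and no 95% interval reached beyond -0.36 or 0.37. The count of risers was 3 without PBLD replicate 3, where SLC25A15 and SLC25A42 were added, and 2 without control replicate 2, where SLC25A10 was added. With the replicate number as a block it was 2, SLC25A42 being the gene added. Of all genes 6.45%, 4.58% and 7.89% were called higher in these fits, in the order given. After normexp and quantile normalization 0 of 45 rose in limma (2 at an unadjusted p under 0.05).

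Where a gene had several probes above background on all 6 arrays, the probes mostly agreed in sign but not always in size. There were 12 such member genes, of which 10 had changes of one sign on every such probe. The median difference between probes was 0.07 and the largest 0.17. In SLC25A15 the probes gave 0.02 and 0.17, and in SLC25A42 0.05 and 0.21. Called members other than TIMM21 and TOMM20 each had a single probe, so their calls could not be compared between probes. TIMM21 and TOMM20 were called on both of their probes and TIMM23 on 1 of 4, where over all probes of the array 3.50% rose and 2.57% fell, 6.08% in all. The genes whose probes differed in sign were SLC25A3, from -0.09 to 0.07, and SLC25A26, the carrier of S-adenosylmethionine, from -0.048 to 0.11, and limma called 0 of their probes.

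Other genes of import and of mitochondrial transport were read from lists chosen by function. Of 16 genes of the import motor and of membrane assembly, 2 rose and 0 fell. HSPA9, the mitochondrial HSP70 that pulls proteins through TIM23, read 12.51, 12.40 and 12.40 in control and 13.10, 13.14 and 13.13 in PBLD cells. Its groups were far apart, and it rose by 0.69 (SE 0.06, 1.61-fold, adjusted p = 3.62e-06). GRPEL1, its nucleotide exchange factor, rose by 0.26 (SE 0.07, adjusted p = 0.0395), a call lost when any array other than control replicate 1 was left out, with adjusted p from 0.0586 to 0.171 in those fits and from 0.0111 to 0.311 over all alternatives. The motor genes PAM16, DNAJC19, DNAJC15 and GRPEL2 did not pass.

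Of 15 genes of presequence removal, folding and quality control, 2 rose and 0 fell. LONP1, the matrix protease, rose by 0.30 (SE 0.06, adjusted p = 0.00760) and MIPEP, an intermediate peptidase, by 0.25 (SE 0.07, adjusted p = 0.0297). The MIPEP call was lost when any array other than control replicate 1 was left out, with adjusted p from 0.0524 to 0.131 in those fits and from 0.0151 to 0.236 over all alternatives.

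Of 21 other mitochondrial transport genes, 2 rose and 1 fell. VDAC3, an outer membrane pore, rose by 0.44 (SE 0.08, adjusted p = 0.00308) and LETM1, an ion exchanger, by 0.36 (SE 0.07, adjusted p = 0.00353). CPT1A, the gate of fatty acid entry, fell by 0.64 (SE 0.07, adjusted p = 3.15e-05), but a second probe above background changed by -0.02.

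Of 10 regulators of mitochondrial genes, 2 rose and 1 fell. TFAM, which packages and transcribes mitochondrial DNA, read 10.52, 10.61 and 10.48 in control and 10.97, 10.94 and 10.94 in PBLD cells, a rise of 0.41 (SE 0.06, adjusted p = 0.000543). TFB2M, a mitochondrial transcription factor, rose by 0.38 (SE 0.07, adjusted p = 0.00157) on one probe and by 0.45 on another. The coactivator PPARGC1A, known to promote the making of mitochondria, went down by 0.47 instead (change -0.47, SE 0.09, adjusted p = 0.00366). NRF1 itself was above background on 1 array, so its level could not be read. After normexp and quantile normalization the calls of LONP1 (adjusted p = 0.367), VDAC3 (0.0984), TFAM (0.101) and TFB2M (0.155) ended, and that of LONP1 also in the trended robust fit (0.0614), while HSPA9, LETM1, CPT1A and PPARGC1A were called in all 16 alternatives. These shares of risers, 12.5%, 13.3%, 9.52% and 20.0% in the order given, stand beside 5.81% of all genes and 10.6% of genes above background on at least 3 arrays, and most of the listed genes were above background (14 of 16, 15 of 15, 17 of 21 and 8 of 10).

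**Figure D4:**
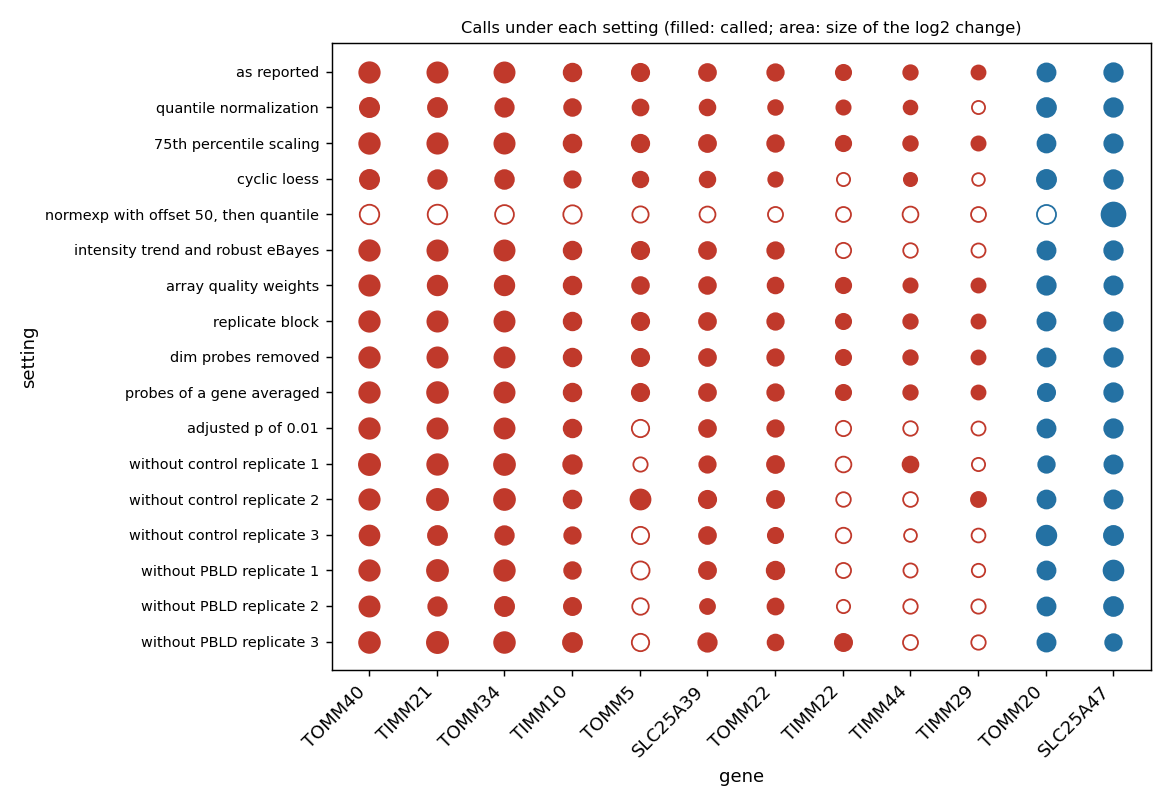
Calls of the 12 called genes under the reported setting and 16 alternatives, with a filled circle where the gene was called, an open one where it was not, red for higher and blue for lower, and the circle's area giving the size of the log2 change. The row for normexp and quantile normalization is open for all genes but SLC25A47, and TOMM5, TIMM22, TIMM44 and TIMM29 open in most rows that leave out an array.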

How the data were processed

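Total RNA of 3 control and 3 PBLD overexpressed HepG2 samples was measured on Illumina bead arrays. The authors deposited log2 intensity values of 47323 probes a sample, and their scaling and background treatment are not given in the sources used here. The base of 2 was read from the range of the values and is not stated, so every fold rests on it. BeadStudio appears in the submitters' processing notes without a version. A further table with 12 value columns was not used, since none of the column names could be tied to a sample.

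Moderated tests (lmFit, then eBayes; both sides) were run on the deposited values in R 4.3.3 with limma 3.58.1. All probes entered the fit, without a filter, and the Benjamini-Hochberg adjustment, with calls at 0.05. Intervals are 95% intervals of the same fit. Probes were named from the platform annotation (30113 with 1 symbol, 8 with several, 17202 with none). All 98 member probes matched RefSeq by Entrez identifier, with 0 symbols changed. Figures used matplotlib 3.10.9 in Python 3.11.15.

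The members, lists and tests were chosen with earlier results of these data known. The genes named are all called members, the member with the highest mean and the one with the smallest p in each role, members whose probes disagree, and called genes of the further lists. Other genes are named as examples and were chosen after their values were seen. Alternatives were quantile, 75th percentile and cyclic loess scaling, normexp (offset 50) with quantile normalization, a trended robust fit, array weights, a replicate block, removal of dim probes, averaging of probes, a threshold of 0.01 and leaving out each array. On simulated data for PBLD minus control over 47323 probes with 50 genes changed per fold, the steps recovered 92% of 1.3-fold and 100% of 1.5-fold changes, with 17 false calls among 213. Changes under 1.3-fold were not simulated, and those called for TIMM29, TIMM44, TIMM22, TOMM22, SLC25A39, TOMM5 and TIMM10 were of that size. The simulated noise was normal and independent between probes, and far fewer genes changed than were called in the data.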

Additional observations from a re-analysis of the deposited data

How the results depend on the processing

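Between 6 and 10 import genes were higher under the alternatives other than normexp, the 0.01 threshold and leaving out arrays, against 9 as reported, and the share of all genes tested ran from 4.31% to 11.4% in those fits. With normexp and quantile normalization the counts were 0 import genes higher, 0 lower, and 0 carriers higher, in limma (10, 1 and 2 at an unadjusted p under 0.05). The cause was not tested. The log2 changes of the 12 called genes kept their direction in all 16 alternatives. The trended robust fit, replicate block, removal of dim probes and 0.01 threshold could not alter these changes. Nor could averaging of probes for a gene with a single probe, and both probes of TIMM21 and of TOMM20 already agreed in direction. Leaving out an array or weighting the arrays could change the size but not the direction, since the groups overlapped in none of the 12. The kept direction is thus informative at most for the alternatives that normalized the arrays anew. With normexp TOMM40 stood at 0.45 (limma adjusted p = 0.0674) and TIMM21 at 0.45 (0.0645). At a threshold of 0.01, 5 import genes were higher, beside 3.18% of all genes. Leaving out each array gave 5 to 7 import genes higher and 1 to 3 carriers higher, beside 3.70% to 6.45% of all genes. The replicate block gave 10 import genes and 2 carriers higher, beside 7.89% of all genes. The labels do not say whether same-numbered arrays were paired. Their deviations correlated at 0.04, 0.14 and 0.19, and 2 of the 3 numbers correlated best with themselves. These values do not decide whether the arrays were paired. The reported fit used no pairs, and the block was run as an alternative. Changes close to 0 that never passed turned sign. SLC25A1 went to -0.036 with quantile normalization, -0.042 with cyclic loess and -0.038 with normexp, and TOMM7 to -0.018, -0.013 and -0.018. Leaving out each array, SLC25A1 ran from -0.039 to 0.095, TOMM7 ran from -0.048 to 0.068, SLC25A43 ran from -0.21 to 0.0064, SLC25A5 ran from -0.073 to 0.042, SLC25A30 ran from -0.070 to 0.073, and SLC25A51 ran from -0.19 to 0.015. How far genes near background changed is limited by their signal, since 9 of 69 members were above background on 0 arrays.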
